A study of Mus musculus with 36 samples.

Results

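The secreted Wnt inhibitors examined here are *Dkk1*, *Dkk2*, *Dkk3*, *Sfrp1*, *Sfrp2*, *Frzb* and *Wif1*. These 7 genes were chosen by name, as rows of the count tables whose Ensembl identifiers carry these symbols, and all 7 were found in each of 3 tables, among 25760, 26863 and 26472 genes. RNA was sequenced from 36 libraries of primary nephron progenitor cells (NPCs), the self-renewing mesenchyme that gives rise to nephrons, taken from E16.5 mouse kidneys, depleted of other cells with antibodies against CD105, CD140, Ter119 and CD326, and cultured in NPEM. The cultures were compared across doses of CHIR99021 (CHIR), a GSK3β inhibitor that stabilizes β-catenin, and with or without β-catenin or the Tcf/Lef factors that carry it to DNA. Wild-type NPCs were given no CHIR, low CHIR (1.25 µM) or high CHIR (5 µM) for a day, with 3 libraries each. For removal of β-catenin, Cas9-eGFP NPCs received *Ctnnb1* guides or a GFP guide, and B-catenin_c_c NPCs, which carry conditional alleles, received Cre mRNA or none, each in low and high CHIR with 2 libraries per group. For the quadruple knockout (QKO), Cas9-eGFP NPCs received guides against *Tcf7l1*, *Tcf7l2*, *Tcf7* and *Lef1* or a GFP guide, with 3 libraries per group except QKO in low CHIR, which has 2. Transfected cells were sorted for co-transfected mCherry, so a library can hold cells in which the removal was incomplete, and each library is a population of cells from pooled kidneys of embryos whose sex was not distinguished. Per the paper's methods the mice were Swiss Webster or B6, without saying which set came from which. Between transfection and the change of dose, the Tcf/Lef set was kept longer in low CHIR than the β-catenin set. Nothing in the labels says that the replicates of a group came from separate litters, so the p-values measure the spread between these libraries.

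Wnt ligands signal through a Frizzled receptor and an LRP5 or LRP6 co-receptor, and the canonical branch ends in β-catenin bound to Tcf/Lef factors on target genes. Secreted inhibitors act outside the cell in different ways. Dkk1 and Dkk2 bind LRP5 and LRP6 and keep them from the ligand, while Dkk3 is a divergent relative for which LRP binding is not established. Sfrp1, Sfrp2 and Frzb (also named Sfrp3) carry a Frizzled-like domain that binds Wnt proteins, and Wif1 binds Wnt proteins through a domain of its own. In the kidney, Wnt9b from the ureteric epithelium acts on NPCs, and inducing them to form nephrons needs β-catenin.

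Promoter sequence was available from RefSeq (GRCm38.p6) for 5 of the 7 genes, *Dkk1*, *Dkk2*, *Sfrp2*, *Frzb* and *Wif1*, and not for *Dkk3* and *Sfrp1*. The windows below are shown because results below turn on *Dkk2*, *Sfrp2* and *Wif1*. They hold the bases before the RefSeq start, stop where the GENCODE gene begins and are written 5′ to 3′ on the gene's strand, from chr3:132085042-132085291, chr3:83766071-83766320 and chr10:121033754-121033959, all on the plus strand.
Dkk2: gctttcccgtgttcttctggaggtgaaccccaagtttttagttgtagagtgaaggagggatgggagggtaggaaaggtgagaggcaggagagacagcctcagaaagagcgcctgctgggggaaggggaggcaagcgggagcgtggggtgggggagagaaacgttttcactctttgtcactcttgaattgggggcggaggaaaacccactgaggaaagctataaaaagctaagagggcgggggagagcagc
Sfrp2: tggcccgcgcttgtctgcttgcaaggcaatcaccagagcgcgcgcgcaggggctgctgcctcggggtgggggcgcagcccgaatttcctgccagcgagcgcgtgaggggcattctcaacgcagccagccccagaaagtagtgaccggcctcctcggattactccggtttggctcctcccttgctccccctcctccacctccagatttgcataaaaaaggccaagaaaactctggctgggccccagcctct
Wif1: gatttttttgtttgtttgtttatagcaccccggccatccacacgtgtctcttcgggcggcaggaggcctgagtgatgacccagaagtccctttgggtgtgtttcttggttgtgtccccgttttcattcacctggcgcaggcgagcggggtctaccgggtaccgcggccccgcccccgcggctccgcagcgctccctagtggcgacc

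The full windows of 250 bases before the RefSeq start of the 5 genes, some of which reach into the GENCODE gene, were searched on both strands for CTTTGA, the core letters of the motif bound by Tcf/Lef factors, whose reverse complement is TCAAAG. Of all 32851 windows of 250 bases before a RefSeq start, 13.8% held it. It was found in the full windows of *Dkk1*, at 2 places, and of *Frzb*, at 1. The GENCODE gene begins before the RefSeq start in both, so that 169 of the 250 bases of *Dkk1* and 229 of those of *Frzb* lie inside it. The first *Dkk1* match below straddles the GENCODE gene's start, the second *Dkk1* match and the *Frzb* match lie inside the gene, and the parts of these windows outside it hold no whole match. The letters were not in the full windows of *Dkk2*, *Sfrp2* and *Wif1*. The sites are shown with 12 bases on either side, on the strand of the gene and with the match in capitals. They lie on the minus strand at chr19:30549653-30549682, chr19:30549596-30549625 and chr2:80447474-80447503, and a match is a description of letters, not a bound site.
Dkk1, match 174 to 169 bases before the start: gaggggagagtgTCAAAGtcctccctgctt
Dkk1, match 117 to 112 bases before the start: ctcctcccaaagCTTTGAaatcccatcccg
Frzb, match 95 to 90 bases before the start: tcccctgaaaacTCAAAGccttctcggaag

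The values are normalized counts, the reads on a gene divided by 1 size factor per library, and each table was scaled on its own, so tests were run only within a table. The libraries held between 13089780 and 76071568 reads on genes, the deepest being wild-type replicate 1 with no CHIR. Wild-type high CHIR replicate 3 stood apart from its group. Its log2 values correlated with those of replicates 1 and 2 at a Pearson r of 0.921 and 0.910, against 0.973 between replicates 1 and 2 and 0.960 to 0.979 in the other wild-type groups, and results that rest on it are given with and without it. *Six2*, a defining marker of NPCs, was at 2716 to 3545 normalized counts in the 6 wild-type libraries with no or low CHIR and at 60.5 to 79.6 in high CHIR. In the high CHIR controls of the removal experiments it was at 977 and 407 without Cre. It was at 1097 and 1336 there with the GFP guide of the β-catenin set, and at 137 to 271 with that of the Tcf/Lef set. Removal was checked on the targeted genes. *Ctnnb1* was at 1040 to 1652 normalized counts in the 4 libraries with *Ctnnb1* guides and at 2521 to 3397 in the 4 with the GFP guide. With Cre it was at 2254 to 3085, inside the range of 2207 to 3880 without Cre, and a count over the whole gene includes the exons that stay. In the QKO libraries *Tcf7* was at 66.2 to 180 normalized counts against 141 to 535 with the GFP guide, and *Lef1* in high CHIR at 255 to 513 against 1144 to 2743, while in low CHIR it overlapped the controls (21.5 and 87.1 against 19.9 to 120). *Tcf7l1* was at 827 and 1286 against 1736 to 2225 in low CHIR and overlapped the controls in high CHIR (539 to 736 against 486 to 612), and *Tcf7l2* overlapped them at each dose. Guides change sequence and need not lower the transcript. Of 12 stromal markers all were detected in every table, and their summed level ranged from 1744 to 35602 normalized counts per library, with *Tbx18* at 0 in some libraries of each table. In bulk libraries fewer cells of a type and less RNA per cell cannot be told apart.

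In wild-type NPCs the doses of CHIR moved the inhibitors in opposite directions. High CHIR lowered *Frzb* about 21-fold and *Dkk3* and *Sfrp2* about 3-fold from low CHIR, and it raised *Wif1*. From no to high CHIR, *Dkk2* fell too. Of the 7 genes tested, 1 was called higher (*Wif1*) and 3 lower (*Dkk3*, *Sfrp2*, *Frzb*) when high was compared with low CHIR, where a gene is called at an adjusted p under 0.05 and a log2 change of at least 0.5 in limma's moderated test. Of all 17411 genes tested, 5.33% were called higher and 5.05% lower. The median log2 change of the 7 was -1.23, beside 0.01 for all genes. For high against no CHIR, 1 was called higher (*Wif1*) and 3 lower (*Dkk2*, *Dkk3*, *Frzb*), against 11.4% and 12% of all genes, and for no against low CHIR 1 was higher (*Dkk3*) and none lower, against 2.37% and 2.6%.

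**Figure D1:**
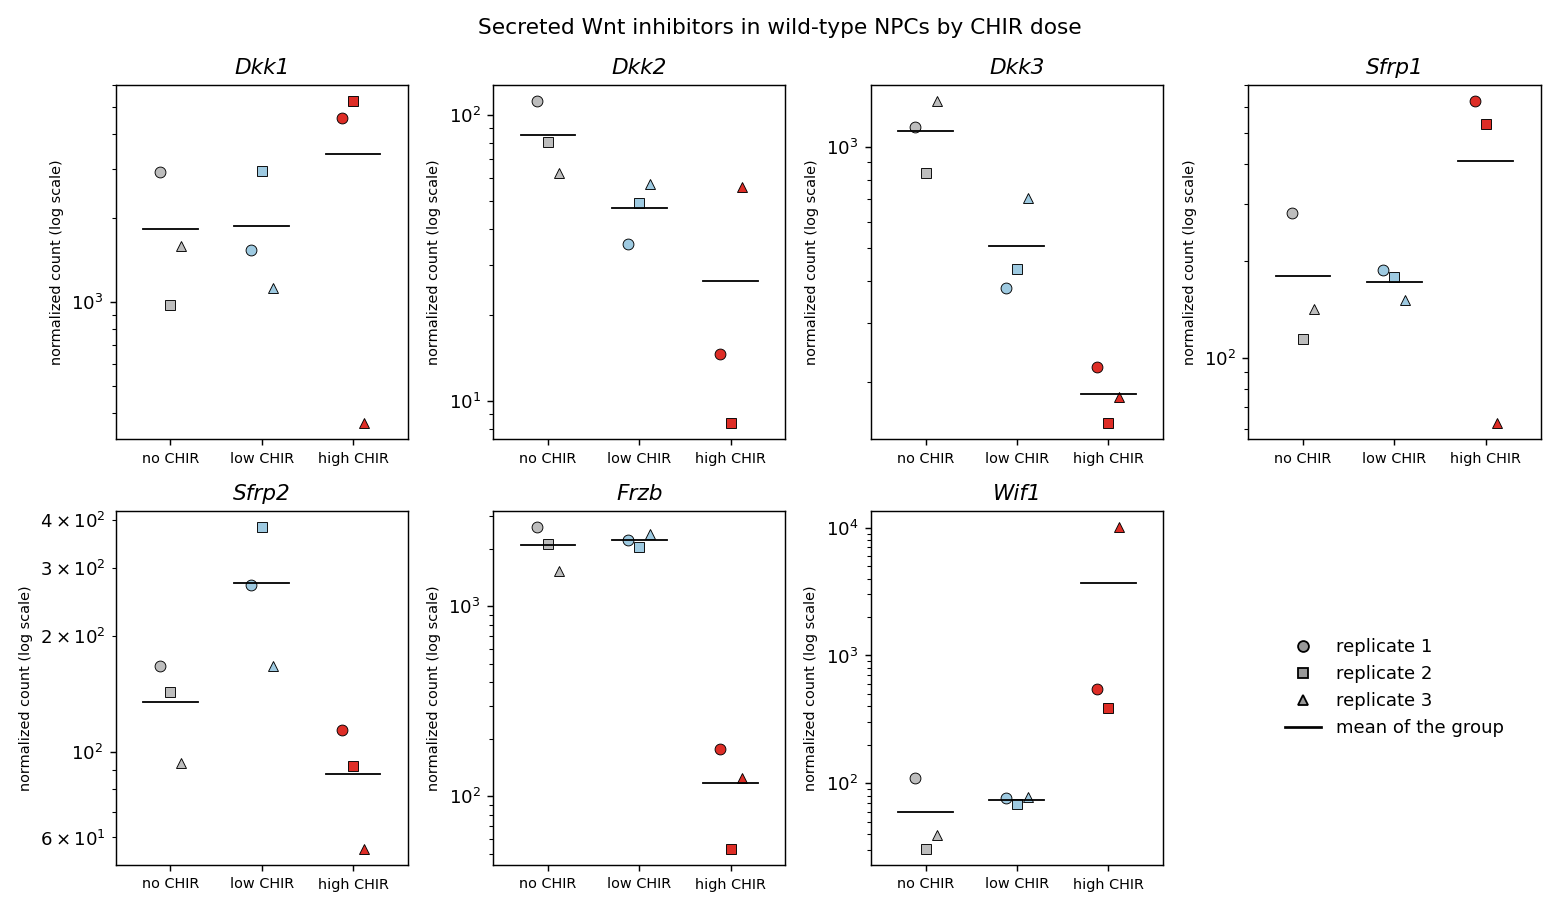
Normalized counts (log scale) of the 7 genes in the 9 wild-type libraries, by CHIR dose; each point is a library, its shape the replicate, and each line the mean of the 3 libraries. *Frzb* and *Dkk3* sit lower in all 3 high CHIR libraries, and the triangle of high CHIR replicate 3 lies apart for *Wif1* (10159), *Dkk1* (369) and *Sfrp1* (62.6).

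Among the Dkk genes, *Dkk3* fell at each step of the dose. It was at 1144, 834 and 1371 normalized counts with no CHIR, at 380, 433 and 705 in low CHIR and at 222, 151 and 180 in high CHIR, and no 2 doses overlapped. Its log2 change was -1.42 from low to high CHIR (95% interval -2.02 to -0.82, adjusted p = 0.00771), and with no CHIR it was 1.16 above low CHIR (0.56 to 1.76, adjusted p = 0.0393). The second of these calls was lost on leaving out any of 5 of the 6 libraries compared (adjusted p 0.0568 to 0.174). *Dkk2*, the lowest of the 3 Dkk genes per kilobase of exon at each dose, was at 112, 80.5 and 62.6 normalized counts with no CHIR and 35.5, 49.4 and 57.5 in low CHIR. In high CHIR it was at 14.6 and 8.38 in replicates 1 and 2 and at 56.1 in replicate 3, so that 2 of 3 libraries lay below every other. From no to high CHIR the log2 change was -2.04 (adjusted p = 0.0287), and from low to high CHIR the change of -1.23 was short of the threshold (adjusted p = 0.227). Without high CHIR replicate 3 these were -2.79 (adjusted p = 0.00102) and -1.98 (adjusted p = 0.0113). The call from no to high CHIR was lost on leaving out any other library compared (adjusted p 0.0577 to 0.0873). It was also lost by edgeR (adjusted p = 0.0665) and on fitting only the libraries compared (adjusted p = 0.0692).

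*Dkk1*, the most studied LRP-binding inhibitor, was detected at every dose and differed widely between replicates. It was at 2935, 979 and 1595 normalized counts with no CHIR and at 1537, 2957 and 1121 in low CHIR, which overlap. In high CHIR, replicates 1 and 2 held 4570 and 5262, more than any other wild-type library, and replicate 3 held 369, fewer than any. Its log2 change from low to high CHIR was 0.27 (95% interval -1.68 to 2.21, adjusted p = 0.889). Without replicate 3 it was 1.51 (adjusted p = 0.0602), and against no CHIR it was then 1.56 (adjusted p = 0.0316).

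The Wnt-binding Sfrp family did not move as one. *Frzb* was at 2621, 2128 and 1531 normalized counts with no CHIR and at 2233, 2056 and 2401 in low CHIR, a difference of -0.12 on the log2 scale for no against low (95% interval -0.94 to 0.70). At the high dose it was at 177, 53.0 and 124, all far below the other doses. The fall from low to high CHIR was 20.9-fold (log2 change -4.39 ± 0.37 standard error, adjusted p = 8.57e-05), with -4.50 when replicate 3 was left out. *Sfrp2* was highest in low CHIR, at 272, 385 and 168 normalized counts, against 167, 143 and 93.8 with no CHIR and 114, 92.1 and 56.1 in high CHIR. The 3 low CHIR libraries lay above all 6 others, and the fall to high CHIR was called (log2 change -1.62 ± 0.37, adjusted p = 0.0200), while the difference of no from low CHIR was not (-0.98, adjusted p = 0.155). Leaving out low CHIR replicate 1 or 2 took the first above the threshold (adjusted p = 0.0701 and 0.0828). The antisense gene *Gm26771* overlaps *Sfrp2* on the other strand, and whether the counting used strand is not given in the sources used here. *Sfrp1* was at 280, 114 and 142 normalized counts with no CHIR, at 187, 178 and 151 in low CHIR and at 626, 532 and 62.6 in high CHIR. As for *Dkk1*, replicates 1 and 2 were the highest and replicate 3 the lowest of the 9 libraries. The log2 change from low to high CHIR was 0.69 (adjusted p = 0.617), and 1.75 without replicate 3 (adjusted p = 0.00798).

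*Wif1* was at 109, 30.7 and 39.1 normalized counts with no CHIR and at 76.2, 68.4 and 77.8 in low CHIR. In high CHIR it was at 546, 388 and 10159, so every high CHIR library exceeded every other, and replicate 3 exceeded replicates 1 and 2 by over an order of magnitude. The log2 change from low to high CHIR was 4.11 (95% interval 1.86 to 6.35, adjusted p = 0.0276). Without replicate 3 it was smaller and better determined, 2.62 (adjusted p = 0.00542), and 3.15 against no CHIR (adjusted p = 0.00117). The call from low to high CHIR was lost on leaving out any low CHIR replicate (adjusted p 0.0805 to 0.0889). It was also lost on fitting only the libraries compared (adjusted p = 0.0681), and DESeq2 gave no p-value for *Wif1* in this table. Some other genes stood high in that library as well, *Notum* and *Apcdd1* among them being picked after their values were seen. The palmitoleoyl-protein hydrolase gene *Notum* was at 5140 normalized counts against 133 and 72.6, the membrane inhibitor gene *Apcdd1* at 5038 against 322 and 100.5, and *Axin2*, a scaffold gene used as a Wnt readout, at 3638 against 538 and 433. Whether these share a cause was not tested.

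All 9 nephron progenitor markers were called lower in high than in low CHIR, with sums of 854 to 1427 normalized counts against 13348 to 20560. The summed stromal markers were 5784 to 16022 in high CHIR, 13689 to 20746 in low CHIR and 11359 to 35602 with no CHIR, and 1 of the 11 tested, *Foxd1*, was lower at the high dose than the low. Of 8 ureteric markers tested 4 were called higher (*Gata3*, *Hoxb7*, *Krt18*, *Epcam*), and the summed list was 9716, 8597 and 4135 in high CHIR against 1345 to 2075 in low CHIR. The summed endothelial markers were 804, 620 and 85.1 in high CHIR replicates 1, 2 and 3 and 50.3 to 180 in low CHIR, with *Tek* called higher and *Emcn* lower of 4 tested, so that replicate 3 was the lowest here as it was for *Dkk1* and *Sfrp1*. Their part in the differences of the inhibitors was not tested.

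Removing β-catenin in high CHIR raised *Dkk2* more than any other member, about 51-fold with Cre and about 43-fold with *Ctnnb1* guides, and raised *Dkk3* about 3-fold in both. With Cre, *Dkk1* rose and *Sfrp2* fell, and with *Ctnnb1* guides *Frzb* rose. Of the 7 genes, 3 were called higher (*Dkk1*, *Dkk2*, *Dkk3*) and 1 lower (*Sfrp2*) with Cre, where 5.9% and 2.75% of the 16780 genes tested were called. With *Ctnnb1* guides 3 were called higher (*Dkk2*, *Dkk3*, *Frzb*) and none lower, beside 3.44% and 1.64% of all genes. The median log2 difference of the 7 was 0.39 with Cre and 1.09 with guides, against -0.01 and 0 over all genes. In low CHIR no member was called in either system, where 0.179% of genes were called higher and 0.149% lower with Cre and 0.0358% and 0.0179% with guides. That count was 0 at an unadjusted p under 0.05 too, and 0 by edgeR and by DESeq2.

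**Figure D2:**
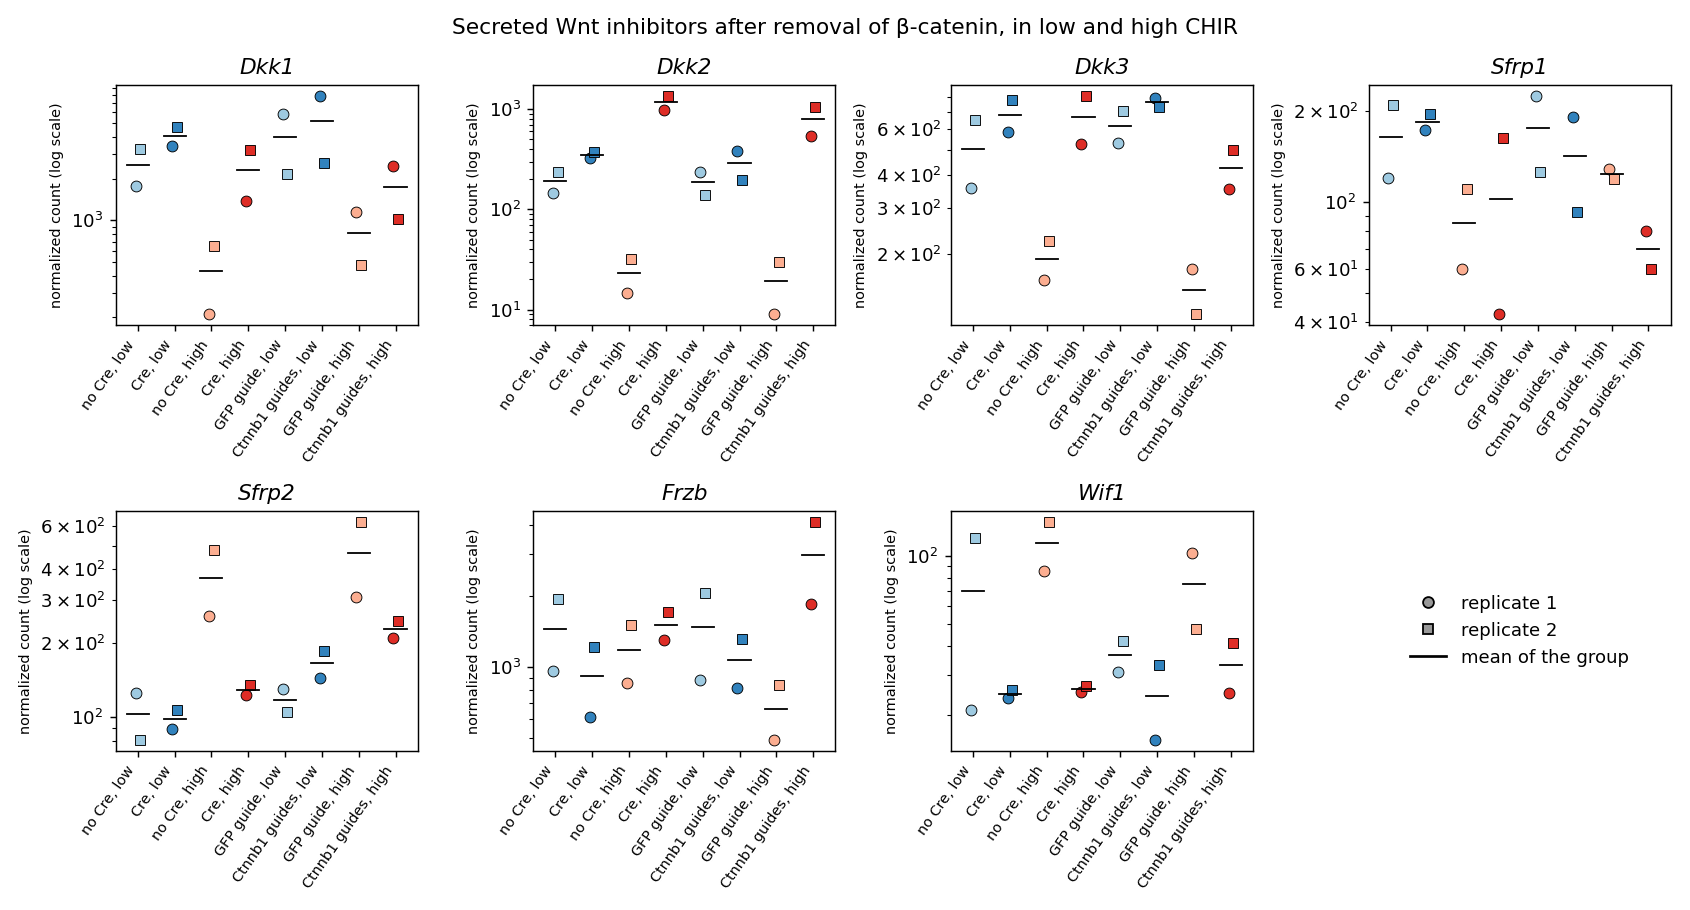
Normalized counts (log scale) of the 7 genes in the 16 libraries of the β-catenin removal table; points are libraries (circles replicate 1, squares replicate 2), lines are means of 2, and low and high on the axis are low and high CHIR. *Dkk2* lies at 546 to 1359 after removal in high CHIR and at 8.99 to 32.2 in the controls.

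In high CHIR *Dkk2* was at 988 and 1359 normalized counts with Cre and at 14.7 and 32.2 without. With *Ctnnb1* guides it was at 546 and 1047, and with the GFP guide at 8.99 and 29.7. All 4 libraries after removal lay above all 4 controls. The log2 differences were 5.67 (95% interval 4.50 to 6.84, adjusted p = 2.17e-05) and 5.43 (4.26 to 6.61, adjusted p = 5.43e-05). In low CHIR *Dkk2* was at 327 and 376 with Cre against 144 and 235 without, and at 384 and 197 with *Ctnnb1* guides against 235 and 141, differences of 0.92 and 0.59 on the log2 scale that were short of the threshold (adjusted p = 0.585 and 1).

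The response of *Dkk2* to the dose differed with the genotype. Between low and high CHIR its log2 level changed by -3.02 without Cre (adjusted p = 0.00308) and by -3.39 with the GFP guide (adjusted p = 0.00155). After removal it went the other way, by 1.72 with Cre and by 1.45 with *Ctnnb1* guides, neither past the threshold (adjusted p = 0.709 and 0.394). The difference between the responses, tested as an interaction, was 4.74 for Cre (95% interval 3.09 to 6.40, adjusted p = 0.0078) and 4.84 for Cas9 (3.18 to 6.5, adjusted p = 0.00964). In limma with no replicate block *Dkk2* was the only member called in either interaction, at 1 of 7 higher. Of all genes 0.745% were called higher and 0.25% lower for Cre, and 0.471% and 0.0477% for Cas9. DESeq2 also called *Frzb* for Cas9 (2.64, adjusted p = 0.0171), which limma did not (2.49, adjusted p = 0.302). The Cas9 interaction was lost without GFP-guide low CHIR replicate 1, *Ctnnb1*-guide low CHIR replicate 2 or *Ctnnb1*-guide high CHIR replicate 2 (adjusted p = 0.0595, 0.0698 and 0.0891), with the difference between 4.36 and 4.47.

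*Dkk3* was also higher after removal in high CHIR, by less than *Dkk2*. Unlike *Dkk2*, it did not rise from low to high CHIR after removal. Its log2 changes were -0.05 with Cre and -0.85 with *Ctnnb1* guides, neither past the threshold. At the high dose it was at 527 and 806 normalized counts with Cre against 159 and 224 without, and at 354 and 500 with *Ctnnb1* guides against 175 and 118. Neither pair of groups overlapped, and the log2 differences were 1.78 (adjusted p = 0.00367) and 1.55 (adjusted p = 0.0164). The second was lost without replicate 2 of either group (adjusted p = 0.191 and 0.196). In low CHIR it was at 588 and 780 against 356 and 653, and at 794 and 730 against 534 and 703. The interactions of 1.29 and 1.23 were short of the threshold (adjusted p = 0.357 and 0.559).

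*Dkk1* was higher in each removal group than in its control on average, with wide spread. In high CHIR it was at 1384 and 3210 normalized counts with Cre against 211 and 655 without, a log2 difference of 2.50 (95% interval 0.97 to 4.03, adjusted p = 0.0441). The call was lost without no-Cre replicate 1 (1.69, adjusted p = 0.309) and without either Cre replicate, and edgeR gave an adjusted p of 0.0654. With *Ctnnb1* guides *Dkk1* was at 2465 and 1019 against 1152 and 478, which overlap (1.09, adjusted p = 0.435). In limma with the replicate number as a block the same difference was called (adjusted p = 0.00366). That fit takes same-numbered libraries as pairs, which the labels do not say. High CHIR had the lower values in every pair of groups, and the fall from low CHIR was called without Cre (from 1758 and 3257 to 211 and 655, log2 change -2.68, adjusted p = 0.0330). That fall was lost without low CHIR replicate 1 or 2 or high CHIR replicate 1 (adjusted p = 0.0709, 0.132 and 0.241). The summed stromal markers moved with *Dkk1* between replicates of the low CHIR controls. With the GFP guide they were 25262 in replicate 1, where *Dkk1* was at 5886, and 10616 in replicate 2, where it was at 2154, and without Cre they were 6748 and 14302, where it was at 1758 and 3257. In wild-type cells the sums followed the order of *Dkk1* with no CHIR but not in low or high CHIR. In wild-type high CHIR they were 16022, 5784 and 9174, where *Dkk1* was at 4570, 5262 and 369. Genes with high counts weigh most in such sums, with *Col1a1* at up to 13346 and *Foxd1* at up to 32.2 in the β-catenin table. The part of these markers in the spread of *Dkk1* was not tested.

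*Frzb*, which fell so far in wild-type cells, was called higher with *Ctnnb1* guides and not with Cre. The systems were not tested against each other. At the high dose it was at 1847 and 4133 normalized counts with *Ctnnb1* guides against 490 and 836 with the GFP guide, without overlap (log2 difference 2.11, adjusted p = 0.0334). Without replicate 1 or 2 of the GFP guide or replicate 2 of the *Ctnnb1* guides it was short of the threshold (adjusted p = 0.212, 0.0851 and 0.331). With Cre it was at 1296 and 1710 against 853 and 1505, which overlap (0.39, 95% interval -0.72 to 1.51, adjusted p = 0.724). In low CHIR it was at 615 and 1210 with Cre against 962 and 1938, and at 813 and 1320 with *Ctnnb1* guides against 884 and 2056.

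*Sfrp2* was the member called lower with Cre. In high CHIR it was at 123 and 135 normalized counts with Cre against 259 and 478 without (log2 difference -1.44, adjusted p = 0.0258). With *Ctnnb1* guides it was at 210 and 246 against 309 and 626 (-0.95, adjusted p = 0.170). The Cre call was lost on fitting only the Cre and no-Cre libraries (adjusted p = 0.0678). Both removal groups lay below their controls, and the Cre call was lost without any of no-Cre replicate 2, Cre replicate 1 or Cre replicate 2 (adjusted p = 0.223, 0.114 and 0.0883). In low CHIR it was at 89.0 and 107 with Cre against 125 and 80.6, and at 144 and 186 with *Ctnnb1* guides against 130 and 105. *Wif1* was at 25.2 and 26.7 with Cre against 85.6 and 141 in high CHIR, and at 24.9 and 41.4 with *Ctnnb1* guides against 103 and 47.9. All removal libraries lay below their controls, and the differences of -2.04 and -1.10 on the log2 scale were short of the threshold (adjusted p = 0.0847 and 0.404), the first being called by DESeq2 (adjusted p = 0.0213). *Wif1* stayed between 15.5 and 119 in the 8 low CHIR libraries. *Sfrp1* was at 42.4 and 163 with Cre against 59.8 and 110, and at 80.1 and 59.9 with guides against 129 and 119, differences of 0.04 (95% interval -1.17 to 1.24) and -0.83 (-2.03 to 0.38).

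Marker lists moved with these groups. In high CHIR, 7 of 9 nephron progenitor markers were called higher and 1 lower (*Itga8*) with Cre, and 6 of 9 higher and none lower with *Ctnnb1* guides. The summed stromal markers were 9608 to 17600 normalized counts with Cre against 7496 to 8809 without, and 14247 to 23668 with *Ctnnb1* guides against 6887 to 20963. None of the 11 stromal markers tested was called. Of 6 endothelial markers 1 passed the filter, *Emcn*, at 911 and 523 normalized counts with Cre against 35.9 and 43.6 without in high CHIR, and at 1041 and 617 with guides against 121 and 55.5. It was called higher in low CHIR too, where no inhibitor was, at 1174 and 748 with Cre against 165 and 147 and at 720 and 503 with guides against 126 and 83.3. Their part in the differences of the inhibitors was not tested.

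Removing the 4 Tcf/Lef factors in high CHIR raised *Dkk2* about 22-fold and *Dkk3* about 4-fold. These 2 of 7 were called higher and none lower, against 2.05% and 0.491% of the 15878 genes tested. In low CHIR none was called, against 0.0063% higher and 0% lower, with none at an unadjusted p under 0.05 and none by edgeR or DESeq2. Deviations of same-numbered libraries from their group means correlated in each of the 15 pairs of groups and numbers of this table (r 0.214 to 0.637). These 15 values are not independent, since deviations within a group are tied by its mean, and differently numbered libraries were not compared. On this basis same-numbered libraries were taken as pairs, and a fit with the replicate as a block is given where it changes a call. Calls made only with the block rest on this assumption, which was drawn from the same values.

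*Dkk2* was at 313, 227 and 195 normalized counts in QKO cells in high CHIR and at 11.5, 9.10 and 9.57 with the GFP guide. The control values rest on 9 to 14 reads each. The log2 difference was 4.45 (95% interval 2.93 to 5.97, adjusted p = 0.00571), and within each pair it was 4.65, 4.50 and 4.21. In low CHIR *Dkk2* was at 131 and 12.7 in QKO cells and at 56.3, 14.8 and 18.2 in the controls, which overlap. From low to high CHIR it was higher within both QKO pairs, by 1.25 and 3.84, and was lower within all 3 control pairs, by -2.19, -0.65 and -0.86. The fit without the block called neither response (adjusted p = 0.132 and 0.280) nor their difference of 3.73 (adjusted p = 0.372). With the block the response in QKO cells was 2.65 (adjusted p = 0.0182) and the interaction 3.89 (adjusted p = 0.04). The response in QKO cells was also past the threshold, with no block, when QKO low CHIR replicate 1 was left out (4.14, adjusted p = 0.0134).

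*Dkk3* was at 495, 408 and 303 in QKO cells in high CHIR against 117, 72.8 and 95.7, without overlap (log2 difference 2.06, adjusted p = 0.0147, within pairs 2.07, 2.47 and 1.65). The call was lost without GFP-guide replicate 2, QKO replicate 1 or QKO replicate 2 (adjusted p 0.0715 to 0.084). In low CHIR it was at 1323 and 549 against 782, 515 and 293. In QKO cells the log2 change from low to high CHIR was -1.42 and -0.86 within the 2 pairs, which the block called (-1.07, adjusted p = 0.0355) and the other fit did not (adjusted p = 0.237). *Dkk1* had no common direction across pairs. At the high dose it was at 1178, 278 and 71.3 in QKO cells and at 283, 429 and 188 in controls, so that it was 4.17 times the control in replicate 1 and 0.649 and 0.379 times in replicates 2 and 3. Its log2 difference was 0.02 (95% interval -2.77 to 2.81). In low CHIR replicate 1 held 3705 in QKO cells and 1576 in the control, and replicate 3 held 140 and 89.9. The summed stromal markers were also highest in replicate 1, at 18847 and 11361 in low CHIR against 4458 and 4948 in replicate 3, and their part was not tested.

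*Frzb* was at 1733, 238 and 455 in QKO cells in high CHIR against 518, 95.1 and 310 in the controls. The groups overlap across pairs, while within each pair QKO was higher, by 1.74, 1.31 and 0.55 on the log2 scale. The difference of 1.20 was short of the threshold without the block (adjusted p = 0.488), and the block called it (adjusted p = 0.0315). *Wif1* was at 64.3, 45.7 and 22.2 in QKO cells against 190, 124 and 93.6, all lower, with a difference of -1.67 that was short of the threshold (adjusted p = 0.323, and 0.0514 with the block). *Sfrp2*, which fell on removal of β-catenin with Cre, was at 337, 686 and 1088 in QKO cells against 401, 383 and 657, which overlap (0.44, 95% interval -0.83 to 1.71). *Sfrp1* was at 183, 164 and 288 against 199, 312 and 337 (-0.42, 95% interval -1.10 to 0.25). In the same comparison 7 of 9 nephron progenitor markers were called higher and none of the 10 stromal markers tested, whose sums were 2295 to 11608 in QKO cells and 1744 to 6104 in the controls, and their part was not tested.

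**Figure D3:**
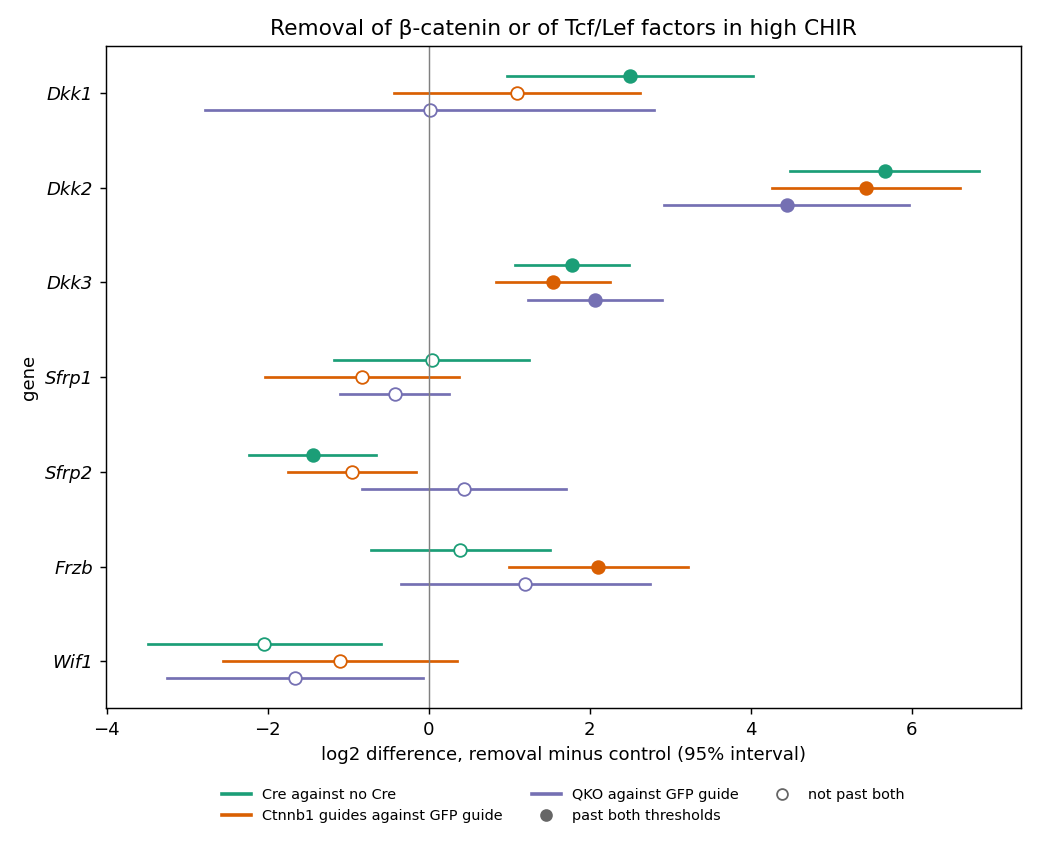
Log2 difference between removal and control in high CHIR for each gene, from limma on log2(normalized count + 1), with 95% intervals; filled points passed both thresholds, and colours are Cre, *Ctnnb1* guides and QKO. *Dkk2* lies at 5.67, 5.43 and 4.45 and *Dkk3* at 1.78, 1.55 and 2.06, and the other 5 genes are each called in at most 1 of the 3 comparisons.

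The dose of CHIR could also be followed in the control cells of the removal experiments. Unlike the wild-type cultures, these carried Cas9-eGFP or conditional β-catenin alleles and were transfected and sorted. In these, *Dkk3* fell from low to high CHIR as it did in wild-type cells, by 1.35, 2.09 and 2.38 on the log2 scale without Cre, with the GFP guide of the β-catenin set and with that of the Tcf/Lef set (adjusted p = 0.0216, 0.00139 and 0.00134), the first of which was lost without low CHIR replicate 2 or high CHIR replicate 1 (adjusted p = 0.130 and 0.164). The *Dkk3* call without Cre was also lost on fitting only the Cre and no-Cre libraries (adjusted p = 0.0734). For the same 3 sets, in the same order, *Six2* changed by -2.04, -0.74 and -3.34 (limma, adjusted p = 0.00192, 0.234 and 4.34e-05). In wild-type cells its log2 change was -5.40. *Sfrp2* went the other way from wild type. Without Cre 1 member was called higher (*Sfrp2*) and 3 lower (*Dkk1*, *Dkk2*, *Dkk3*), against 2.8% and 5.24% of genes. With the GFP guide of the β-catenin set 1 was higher (*Sfrp2*) and 2 lower (*Dkk2*, *Dkk3*), against 2.98% and 4.53%. With that of the Tcf/Lef set 1 was higher (*Sfrp2*) and 2 lower (*Dkk3*, *Frzb*), against 6.98% and 7.96%.

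**Figure D4:**
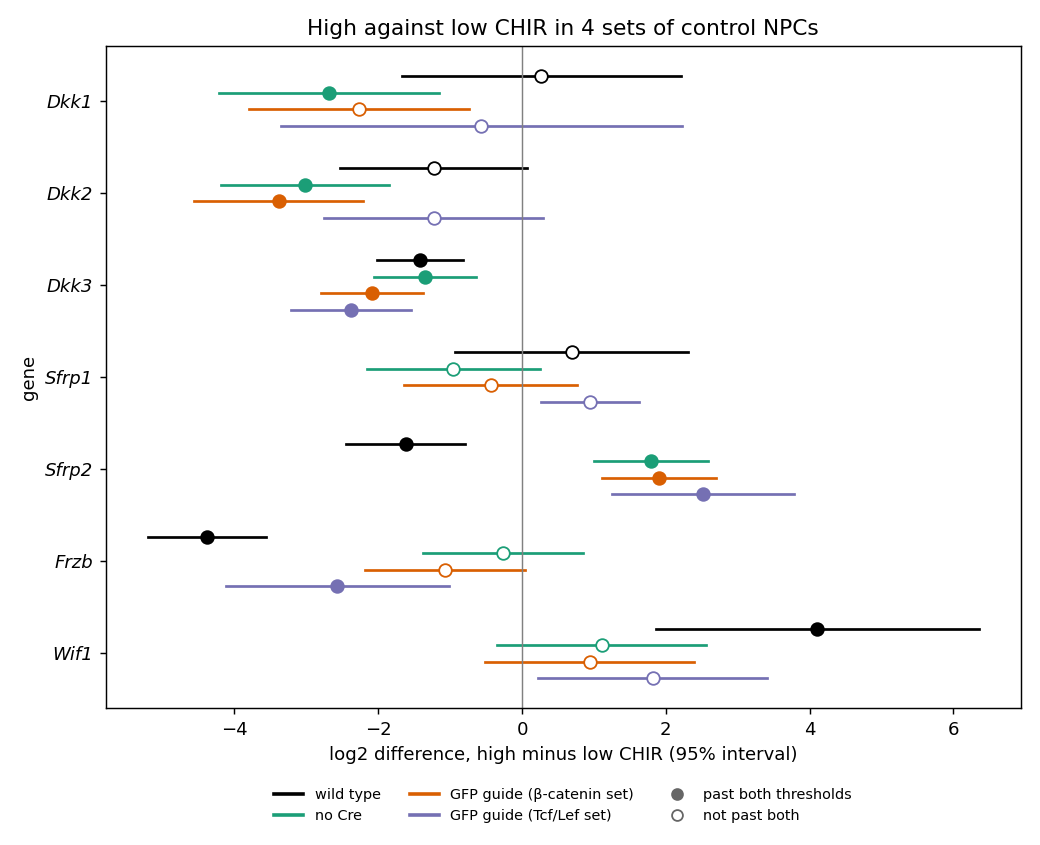
Log2 difference between high and low CHIR for each gene in wild-type NPCs and in the 3 sets of transfected controls, from limma within each table, with 95% intervals; filled points passed both thresholds. *Sfrp2* lies at -1.62 in wild-type cells and at 1.80, 1.90 and 2.52 in the others.

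*Sfrp2* rose from 125 and 80.6 normalized counts in low CHIR to 259 and 478 in high CHIR without Cre. With the GFP guide it rose from 130 and 105 to 309 and 626, and in the Tcf/Lef set from 42.8, 81.9 and 147 to 401, 383 and 657. No control pair of groups overlapped, and the log2 changes were 1.80, 1.90 and 2.52 (adjusted p = 0.00746, 0.00591 and 0.0117). Without Cre the call was lost without low or high CHIR replicate 2 (adjusted p = 0.0509 and 0.0897), and so it was with the GFP guide of the β-catenin set (adjusted p = 0.0604 and 0.103) and, in the Tcf/Lef set, without low CHIR replicate 1 (adjusted p = 0.0521). In wild-type cells each high CHIR library lay below each low CHIR library. The difference between wild-type and transfected cells was not tested, since tests were run only within a table. Genotype, mouse background, transfection, sorting and the length of culture cannot be told apart here. In high CHIR the rise was not called after β-catenin removal, where *Sfrp2* was 0.40 higher with Cre and 0.47 higher with *Ctnnb1* guides than in low CHIR (adjusted p = 1 and 0.753). In QKO cells it was at 47.6 and 210 in low CHIR and at 337, 686 and 1088 in high CHIR, a change of 2.64 (adjusted p = 0.0562, and 0.000299 with the block).

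*Frzb* fell in the Tcf/Lef controls from 2385, 1124 and 1214 to 518, 95.1 and 310 (log2 change -2.57, adjusted p = 0.0295). That call was lost on leaving out any of low CHIR replicates 1 and 2 or high CHIR replicates 2 and 3 (adjusted p 0.0537 to 0.122). Without Cre it was at 962 and 1938 in low CHIR and at 853 and 1505 in high CHIR, and with the GFP guide of the β-catenin set at 884 and 2056 and at 490 and 836, neither past the threshold (adjusted p = 0.808 and 0.258). *Wif1* was higher in high CHIR in the Tcf/Lef controls within each pair, by 1.10, 3.08 and 1.28 (1.82, adjusted p = 0.121, and 0.0149 with the block). *Sfrp1* was higher within the pairs of replicates 2 and 3, by 1.33 and 1.55, and not in replicate 1, at -0.05 (0.95, adjusted p = 0.0605, and 0.0477 with the block). Without Cre and with the GFP guide of the β-catenin set it changed by -0.96 and -0.44, neither called. In wild-type cells it was 0.69, and 1.75 without high CHIR replicate 3. *Dkk1* changed by -2.68 without Cre, which was called. With the GFP guides of the β-catenin and Tcf/Lef sets it changed by -2.26 and -0.57, neither called. In wild-type cells *Dkk1* changed by 0.27, and by 1.51 without high CHIR replicate 3, neither called.

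In cells without β-catenin no member was called between low and high CHIR. With Cre 0.28% of all genes were called higher and 0.0119% lower, and with *Ctnnb1* guides 0.626% and 0.137%. At an unadjusted p under 0.05, 1 member passed with Cre (*Dkk2*) and 3 with guides (*Dkk2*, *Dkk3*, *Frzb*). By edgeR none was called in either, and by DESeq2 1 with Cre (*Dkk2*) and none with guides. In QKO cells no member was called without the block, against 1.42% higher and 1.12% lower, with 3 at an unadjusted p under 0.05 (*Dkk2*, *Dkk3*, *Sfrp2*), none by edgeR and 1 by DESeq2 (*Sfrp2*). The QKO interaction called none of the 7, against 0.107% higher and 0.0189% lower, with 3 at an unadjusted p under 0.05 (*Dkk2*, *Dkk3*, *Sfrp1*) and none by edgeR or DESeq2.

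Set per length, the members made up very different shares of the inhibitor transcripts. Counts were divided by the kilobases of exon in the GENCODE vM21 annotation, and each gene's value was taken as a percent of the sum over the 7 in that library. *Dkk1* and *Frzb* had the highest shares in wild-type low CHIR, with 29.4 to 54.3% and 28.3 to 47.1%, and these ranges overlap. *Dkk3* followed with 5.75 to 13.3%, overlapping *Sfrp2* at 4.95 to 7.96%. *Sfrp1* (1.81 to 2.59%), *Wif1* (1.26 to 2.04%) and *Dkk2* (0.582 to 0.986%) came last. In wild-type high CHIR *Frzb* made up 0.641 to 2.25%, and either *Dkk1* (up to 84.8%) or, in replicate 3, *Wif1* (93.3%) made up most of the sum. *Dkk2* was 0.271 to 0.958% of the sum in the β-catenin controls in high CHIR and 7.50 to 18.1% without β-catenin.

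Other genes of the pathway were read from a list of 25, made of other secreted inhibitors, membrane-bound inhibitors and Wnt co-receptors. In wild-type cells 20 of them were tested, and high CHIR gave 4 calls above and 5 below low CHIR. The 6 that changed most were *Notum* (log2 change 7.18), *Apcdd1* (3.90) and *Lrp4*, an LRP5 and LRP6 relative (3.70), which rose, and *Sostdc1*, a secreted inhibitor (-3.53), *Trabd2b*, a membrane protease that cleaves Wnt (-2.12), and *Shisa3* (-1.72), which fell. Without high CHIR replicate 3, 6 were called higher and 5 lower, and the changes were 5.28 for *Notum*, 2.30 for *Apcdd1*, 4.23 for *Lrp4*, -2.90 for *Sostdc1*, -1.56 for *Trabd2b* and -1.83 for *Shisa3*, all past the threshold. For no against low CHIR 1 was called, *Tmem131l*, lower by 0.92.

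After removal of β-catenin in high CHIR, 17 of the list were tested, and 3 were higher and 5 lower with Cre, and 1 higher and 4 lower with *Ctnnb1* guides. *Lrp4* fell by 3.29 and 2.69 on the log2 scale and *Notum* fell by 3.21 and 2.83. *Shisa2*, whose product holds back Frizzled in the cell, fell by 2.01 and 1.71, and *Znrf3*, a ubiquitin ligase gene whose product removes Frizzled, fell by 1.44 and 1.11. *Igfbp4*, the gene of a secreted protein that can bind LRP6 and Frizzled, rose in both, by 1.72 and 1.97. *Ror1*, a Wnt co-receptor gene, rose with Cre by 2.03. In QKO cells in high CHIR, 16 were tested and 2 were called, both lower, *Lrp4* by 1.94 and *Shisa2* by 1.88. In low CHIR none was called with Cre, with guides or in QKO cells. *Lrp4* was also the pathway gene called in both interactions, at -2.80 for Cre and -1.84 for Cas9 (adjusted p = 0.000476 and 0.0169), the opposite sign to *Dkk2*.

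The genes whose level across libraries was most like each member were found by the mean of Pearson's r over the 3 tables (9, 16 and 11 libraries, log2 values, 14951 genes), as a description. *Dkk3* had the closest, *Trib2* (0.957), *Parva* (0.956) and *Fam114a1* (0.949). *Dkk2* was closest to *Pmp22* (0.837), *Ndnf* (0.831) and *Cap2* (0.820), and *Dkk1* to *Mcc* (0.881), *Casp12* (0.860) and *Klhl3* (0.809). *Frzb* was closest to *Rai2* (0.857), *Npr3* (0.798) and *Ppp2r2b* (0.796), and *Sfrp2* to *Aplf* (0.830), *Car4* (0.813) and *Slc45a3* (0.806). *Wif1* was closest to *Ptch1* (0.801), the Hedgehog receptor, *Gm49708* (0.789) and *Gata2* (0.787). *Sfrp1* had no close match, its first being *9230112J17Rik* (0.656), *Sema6a* (0.655) and *Mecom* (0.651), with r from 0.350 to 0.613 in the β-catenin table. All of these share libraries, doses and genotypes, so a high r says only that the levels rise and fall in the same libraries.

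In the GENCODE vM21 annotation of GRCm38, *Dkk1* (ENSMUSG00000024868) lies on chromosome 19 from 30545863 to 30549665 and *Dkk2* (ENSMUSG00000028031) on chromosome 3 from 132085292 to 132180304. *Dkk3* (ENSMUSG00000030772) lies on chromosome 7 from 112116017 to 112159057, *Sfrp1* (ENSMUSG00000031548) on chromosome 8 from 23411502 to 23449632 and *Sfrp2* (ENSMUSG00000027996) on chromosome 3 from 83766321 to 83774316. *Frzb* (ENSMUSG00000027004) lies on chromosome 2 from 80411970 to 80447625 and *Wif1* (ENSMUSG00000020218) on chromosome 10 from 121033960 to 121100650. The values are summed over each gene's exons, so they do not tell apart the transcripts of a gene.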

How the data were processed

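RNA from 36 libraries of mouse NPCs was amplified as SMARTer cDNA and sequenced as paired reads of 150 bases. Per the study's methods, reads were aligned with STAR 2.5.1a1 to GRCm38 and GRCh38 combined, and uniquely aligned, unambiguous reads were counted per gene with featureCounts 1.4.6-p52, with the strand setting not given in the sources used here. The deposited signal is a normalized count: the authors divided each library's counts by 1 DESeq2 size factor per library, separately in each of 3 tables. The 8 deposited tables of the authors' own comparisons hold fold changes and p-values and were not used.

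Members were matched by Ensembl identifier to GENCODE vM21 symbols. Genes averaging 10 or more normalized counts over the table were kept, a filter that all 7 members passed in all 3 tables. limma 3.58.1 in R 4.3.3 was fitted with a trend to log2(normalized count + 1) over all libraries of a table, with Benjamini-Hochberg adjustment over all genes tested, so log2 changes are on that scale and understate the change of low genes. A gene was called at an adjusted p under 0.05 and a log2 change of at least 0.5. Since 100% of values were whole multiples of 1 step per library (tolerance 0.1 read), reads were recovered and edgeR 4.0.16 and DESeq2 1.42.0 were run on them as alternatives. The steps were tested on simulated data. Libraries held 13089780 to 76071568 reads on genes, which limits the precision of *Dkk2* most, with as few as 6 reads in a library.

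Deviations of same-numbered libraries from the group means correlated at 0.214 to 0.637 in the Tcf/Lef table, so they were taken as pairs. The pairing comes from these values. Column headers of the authors' comparison tables for this set carry a date per library but no replicate number. The other alternatives were a pseudocount of 0.5, no filter, TMM rescaling, a fit on only the libraries compared, a replicate block and leaving out each library. Named were all 7 members, pathway genes that were called (at most 6 per comparison, by size of the change), the targeted genes and Wnt and progenitor checks, and the 3 genes most like each member. *Apcdd1* and *Notum* in wild-type high CHIR replicate 3, and the marker *Foxd1*, were named after their values were seen. The members and the lists were chosen with earlier results of these data known. Promoters came from RefSeq (GRCm38.p6).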

Additional observations from a re-analysis of the deposited data

Results flagged for a closer look

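The response of *Dkk2* to CHIR differed with and without β-catenin by a test of the difference itself, by 4.74 on the log2 scale for Cre (limma, adjusted p = 0.0078) and by 4.84 for Cas9 (adjusted p = 0.00964), with lower levels in high CHIR in all 4 control libraries and higher levels in all 4 removal libraries, compared with low CHIR. The Cre call was kept under every alternative. The Cas9 call was lost on leaving out some single libraries, with the difference then between 4.36 and 4.47.

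*Sfrp2* changed in opposite directions between low and high CHIR in wild-type NPCs (-1.62 on the log2 scale) and in transfected controls (1.80 without Cre, 1.90 and 2.52 with the GFP guide in the β-catenin and Tcf/Lef sets). In each set the low and high CHIR libraries did not overlap. The difference between the sets was not tested, since tests were run only within a table.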

How the results depend on the processing

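Of 126 tests of a member, 30 were called, and their direction was kept in all 364 values from the alternatives. Of these values 311 stayed past the threshold and 53 did not. Of the latter, 46 came on leaving out a library, 4 on fitting only the libraries compared and 3 by edgeR. The pseudocount, the filter, TMM rescaling and the replicate block lost none. DESeq2 lost none of the 28 calls for which it gave an adjusted p. It gave none for *Wif1* in wild-type cells, called in high CHIR against low and against no CHIR. Calls kept under every alternative that gave an adjusted p numbered 14. Among them were *Dkk2* in high CHIR with Cre, with *Ctnnb1* guides and in QKO cells, and *Frzb* between wild-type high and low CHIR. They include *Wif1* for wild-type high against no CHIR, where DESeq2 gave no adjusted p. The number of members called rose with DESeq2 from 0 to 1 for CHIR with Cre and for CHIR in QKO cells and from 1 to 2 for the Cas9 interaction (*Frzb*), and with no filter from 0 to 1 for CHIR in QKO cells.

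With the replicate block, members called rose from 1 to 2 for wild-type no against low CHIR, from 3 to 5 for CHIR with the GFP guide of the β-catenin set, from 0 to 2 for CHIR with *Ctnnb1* guides, from 1 to 4 for the Cre interaction (*Dkk1*, *Dkk3* and *Frzb* added) and from 1 to 2 for the Cas9 interaction (*Frzb* added). In high CHIR they rose from 4 to 5 with Cre (*Wif1* added), from 3 to 4 with *Ctnnb1* guides (*Dkk1* added) and from 2 to 3 in QKO cells (*Frzb* added). In the Tcf/Lef set they rose from 3 to 5 for CHIR in the controls, from 0 to 3 for CHIR in QKO cells and from 0 to 1 for the interaction. Calls over all genes rose in each of these comparisons too. Of 15878 genes tested in the Tcf/Lef set, the block called 841 higher and 340 lower in QKO cells in high CHIR. It called 1487 and 1834 for CHIR in the controls, 506 and 446 for CHIR in QKO cells and 98 and 38 for the interaction. Deviations of same-numbered libraries correlated at -0.0156 to 0.272 in the wild-type table and at 0.116 to 0.518 in the β-catenin table. The latter range overlaps that of the Tcf/Lef table (0.214 to 0.637). In no table do the labels tie libraries of different groups by more than a number. Of 17411 genes tested in wild-type cells, the block called 465 higher and 520 lower for no against low CHIR. Of 16780 in the β-catenin table, it called 274 and 239 with Cre in low CHIR and 1718 and 921 in high CHIR. With *Ctnnb1* guides in high CHIR it called 1333 and 800. For CHIR it called 1162 and 1400 with the GFP guide and 306 and 141 with *Ctnnb1* guides. The Cre interaction had 379 and 147 and the Cas9 interaction 186 and 49.

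Leaving out 1 library at a time left between 2 and 6 members called for wild-type high against low CHIR (6 without high CHIR replicate 3), 3 and 6 for high against no CHIR, 0 and 1 for no against low CHIR, 2 and 3 for Cre in high CHIR, 1 and 3 for *Ctnnb1* guides in high CHIR, 0 and 1 for the Cas9 interaction, 1 and 2 for QKO in high CHIR, 2 and 3 for CHIR without Cre and with the GFP guide of the β-catenin set, 2 and 4 for CHIR in the Tcf/Lef controls and 0 and 1 for CHIR in QKO cells. These are counts of members only, and the share of all genes called in each fit is not given here. In groups of 2 the library left alone is assumed to vary like the other groups. A fit on only the libraries compared does not apply to the QKO interaction, which uses all of them. Which property of a library changed a call was not tested.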
